A study of Mus musculus with 11 samples.

Results

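The 37 genes described here encode parts of the primary cilium that photoreceptors build into an outer segment, and most of them cause retinal ciliopathies or Usher syndrome when mutated. They were chosen by symbol, from 5 well known families, and their rows were taken by Ensembl identifier from count tables that list 47069 genes. All 37 were found, and all 37 passed the filter on low counts that left 18188 genes for testing. Their lowest count in any library ranged upwards from 9 in Cdh23, 15 in Kif17, 38 in Bbs10 and 47 in Bbs12, so these 4 carry the widest counting error.

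RNA sequencing was done on retina of C57BL/6 mice in 4 groups: wild type at postnatal day 4 (P4, 2 libraries), Brn3b-Kir2.1 at P4 (3), wild type at P8 (3) and Brn3b-Kir2.1 at P8 (3). Brn3b-Kir2.1 mice, called Kir2.1 below, carry a human Kir2.1-eYFP transgene behind a CAG promoter and a floxed STOP cassette, together with Brn3b-cre. Kir2.1 is an inwardly rectifying potassium channel that lowers electrical excitability, and Brn3b drives expression in most retinal ganglion cells, so the transgene is not aimed at photoreceptors. The labels disagree on 3 points: the protocol gives the later age as P11, it names Brn3b-cre mice where the genotype field has wild type, and it describes dissociated whole retina with no sorting step where the source name is retinal ganglion cells. Nothing in the labels says whether replicates are separate animals, so p-values measure the spread between these samples, which may be technical.

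Levels are CPM, gene-assigned counts scaled to a common library size with edgeR's trimmed mean of M-values. Gene counts per library ran from 9362215 to 12478838. Kir2.1 P8 replicate 2 held a count in 31325 genes, and the other 10 libraries in 22609 to 24591. Summed rod markers (13 genes) were 850 to 1878 CPM at P4 and 1485 to 7792 at P8. The 11 ganglion cell markers summed to 72.0 to 1120 CPM, so every library held rod transcripts, and most held more of them than of ganglion cell transcripts. Wild-type P8 replicate 1 had 1485 CPM of rod markers against 3842 to 7792 in the other 5 P8 libraries. Wild-type P4 replicate 2 had the highest rod sum at P4 (1878 CPM) and the lowest sum of 10 dividing cell markers at that age (977 against 2206 to 2790 CPM). Mouse Kcnj2, the ortholog of the human transgene, spanned 3.74 to 17.2 CPM in wild type and 4.91 to 17.1 in Kir2.1 at P8. Reads of the human sequence need not count towards it, so it does not check the labels.

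A photoreceptor's outer segment is a modified primary cilium. Every protein of the light response reaches it through the connecting cilium, a long transition zone between the inner and outer segments that acts as a gate. Intraflagellar transport (IFT) trains, made of an IFT-B and an IFT-A complex and pulled outwards by kinesin-2, build and supply the axoneme, and the BBSome rides on these trains and removes proteins that do not belong in the outer segment. In the mouse, connecting cilia and outer segments form after birth and lengthen over the following weeks. Loss of these genes leads to Bardet-Biedl syndrome (BBSome and its assembly factors), Leber congenital amaurosis, retinitis pigmentosa or Joubert syndrome (transition zone), or Usher syndrome (adhesion and scaffold proteins at the connecting cilium and calyceal processes).

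Promoter sequence is shown for 4 of these genes because many ciliary genes are known to carry an X-box, the site of RFX factors, and many photoreceptor genes a site of the homeodomain factor CRX. The windows are RefSeq promoters on GRCm38.p6, found for 34 of the 37 genes (42 windows, each from 250 bases before to 50 after a start site). Capitals mark an X-box (GTNNCC, then 0 to 3 bases of any kind, then NGNAAC) or a CRX core (TAATCC), both searched on both strands. No X-box overlapped a CRX core in these windows. Each sequence runs 5′ to 3′ on the strand of the gene, from 220 bases before its start site to 30 after.
Bbs7, chr3:36613360-36613609, minus strand, an X-box on both strands that begins 121 bases before the start: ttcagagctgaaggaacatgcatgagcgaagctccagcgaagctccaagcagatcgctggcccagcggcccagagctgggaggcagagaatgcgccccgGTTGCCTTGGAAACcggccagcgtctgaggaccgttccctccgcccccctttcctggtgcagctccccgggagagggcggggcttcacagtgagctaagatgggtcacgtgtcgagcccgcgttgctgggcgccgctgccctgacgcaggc
Bbs1, chr19:4906598-4906847, minus strand, a CRX core that begins 197 bases before the start and an X-box on the opposite strand that begins 1 base after it: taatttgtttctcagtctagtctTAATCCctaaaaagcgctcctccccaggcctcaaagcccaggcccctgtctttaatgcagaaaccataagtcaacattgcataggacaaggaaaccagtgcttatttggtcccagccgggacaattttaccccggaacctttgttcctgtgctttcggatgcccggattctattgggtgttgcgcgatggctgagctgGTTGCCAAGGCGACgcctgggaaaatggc
Rpgrip1, chr14:52110683-52110932, plus strand, a CRX core on the opposite strand that begins 28 bases before the start: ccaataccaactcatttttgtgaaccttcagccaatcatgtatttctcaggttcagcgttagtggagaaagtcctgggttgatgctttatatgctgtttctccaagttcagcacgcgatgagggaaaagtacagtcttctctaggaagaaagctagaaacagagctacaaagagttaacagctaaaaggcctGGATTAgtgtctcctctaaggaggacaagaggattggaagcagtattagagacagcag
Ift57, chr16:49699074-49699323, plus strand, X-boxes that begin 87 (opposite strand) and 60 (both strands) bases before the start: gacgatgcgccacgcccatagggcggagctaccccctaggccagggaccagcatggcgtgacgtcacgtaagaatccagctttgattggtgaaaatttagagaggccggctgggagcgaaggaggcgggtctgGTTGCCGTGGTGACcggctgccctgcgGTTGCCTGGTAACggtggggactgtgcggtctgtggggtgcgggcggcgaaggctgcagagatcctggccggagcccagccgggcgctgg

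An X-box was found in 11 of the 42 windows of these genes (26.2%), against 5.25% of all 32851 RefSeq windows and 5.95% of the windows of genes tested. The 10 genes that held one were Bbs1, Bbs4, Bbs7, Ift57, Ift74, Kif17, Lca5, Nphp4, Ahi1 and Whrn. With exactly 2 bases between GTNNCC and NGNAAC, as in Bbs7, the share was 14.3% against 2.17% of all windows. The CRX core was in 7.14% of the windows (Bbs1, Rpgrip1 and Adgrv1), against 7.06% of all windows. Other ciliary genes, on the lists described below, held an X-box in 23.3% of their 73 windows. These matches describe letters in a window and not bound sites.

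All 7 BBSome subunits and 5 of 11 genes of the connecting cilium were higher at P8 than at P4, as were 2 of 8 IFT-B genes. Averaged over both genotypes, 18 of the 37 genes were higher at P8 and 2 were lower (edgeR quasi-likelihood test on all 11 libraries, Benjamini-Hochberg adjusted p under 0.05). Over all genes tested the same rule called 10.7% higher and 12.1% lower. The median log2 fold change of the 37 genes was 0.44, against 0.02 over all genes tested. The call was lost for 9 of the 20 genes, which left 11, when wild-type P4 replicate 1 was left out, and the share of all genes called fell from 22.8% to 12%. Bulk retina cannot tell more ciliated cells from more RNA per cell, which holds for every difference below.

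**Figure D1:**
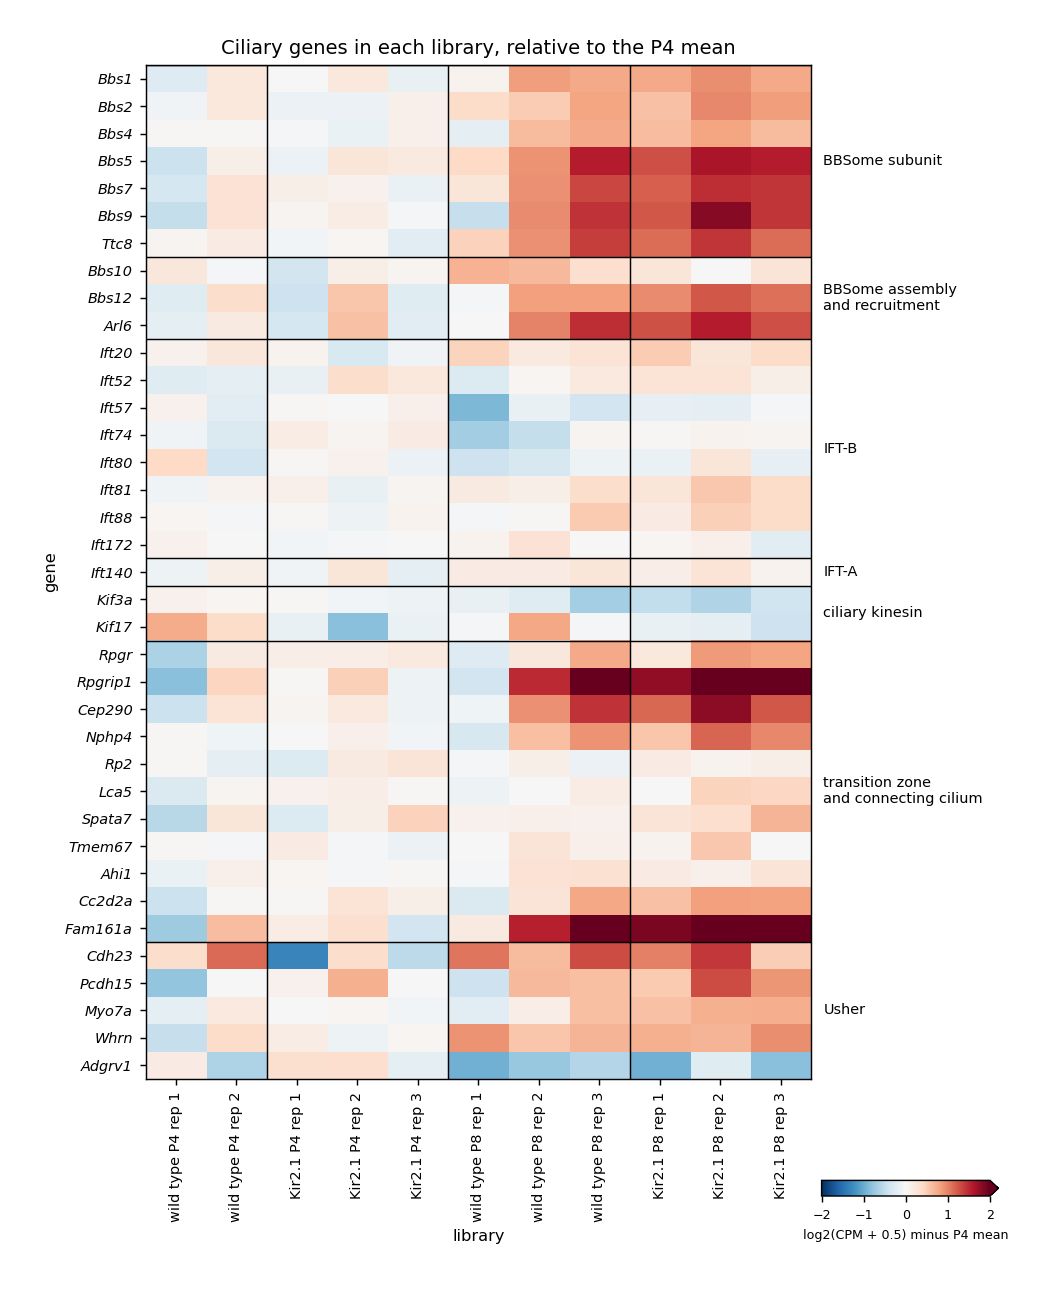
Heat map of all 37 genes (rows, by class) in the 11 libraries (columns, by group), coloured by log2(CPM + 0.5) minus the mean of the 5 P4 libraries, with the scale ending at 2. Of the 6 P8 libraries, wild-type replicate 1 has the lowest value for every BBSome subunit and for the 5 transition zone genes called higher. These genes are redder in the other 5, to a varying degree. Cc2d2a stays pale in the second wild-type library of that age (106 CPM, against 108 in Kir2.1 P4 replicate 2). IFT-B genes are pale apart from Ift57 and Ift74, which are blue in wild-type P8 replicate 1.

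All 7 BBSome subunits rose from P4 to P8, with log2 fold changes of 0.57 to 1.31 and a median of 1.09. Bbs5 (chr2:69647171-69667571, plus strand on mm10), a subunit that binds membrane phosphoinositides, changed most in this class. It measured 9.58 and 14.1 CPM in wild-type P4, 11.998, 15.6 and 15.0 in Kir2.1 P4, 17.4, 24.7 and 39.9 in wild-type P8, and 32.5, 41.6 and 39.9 in Kir2.1 P8. Every P8 library stood above every P4 library, and wild-type P8 replicate 1 was the lowest of the 6. The difference was 2.48-fold (log2 1.31 ± 0.21 SE, edgeR adjusted p = 0.000898).

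Bbs9 (chr9:22475715-22888280, plus strand), a scaffold of the BBSome core, had 31.5 and 54.4 CPM in wild-type P4 and 46.1, 49.0 and 43.5 in Kir2.1 P4. At P8 it had 32.1, 85.7 and 121 CPM in wild type and 105, 157 and 120 in Kir2.1. Wild-type P8 replicate 1 fell within the P4 range, and the other 5 P8 libraries lay above it. Its log2 fold change was 1.17 ± 0.28 SE (edgeR adjusted p = 0.00985). Bbs7 (chr3:36573142-36613477, minus strand), which pairs with Bbs2 in that core, rose from 21.4 and 33.3 CPM in wild-type P4 and 29.6, 29.2 and 24.8 in Kir2.1 P4 to 32.3, 52.1 and 69.6 in wild-type P8 and 63.2, 76.9 and 74.6 in Kir2.1 P8. Here too only wild-type P8 replicate 1 overlapped the P4 range, and the log2 fold change was 1.14 ± 0.19 SE (edgeR adjusted p = 0.00113).

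Ttc8 (chr12:98920574-98983238, plus strand), also known as Bbs8, had 21.5 to 28.0 CPM over the 5 P4 libraries and 34.4 to 68.2 over the 6 P8 libraries. The ages did not overlap, and the log2 fold change was 1.09 ± 0.16 SE (edgeR adjusted p = 0.000418, the lowest of the 37). Bbs4 (chr9:59321990-59353508, minus strand), a subunit linked to centriolar satellites, changed least among the subunits: it had 37.1 to 43.7 CPM at P4, 35.7 in wild-type P8 replicate 1 and 62.8 to 70.4 in the other P8 libraries. Its log2 fold change was 0.57 ± 0.15 SE (edgeR adjusted p = 0.0167). Exons of Bbs4 overlap those of Adpgk on the other strand, and since the strand setting of the counting is not given, reads of that overlap may be of either gene. Bbs1 and Bbs2 lay between these, at 0.70 and 0.68 on the log2 scale.

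**Figure D2:**
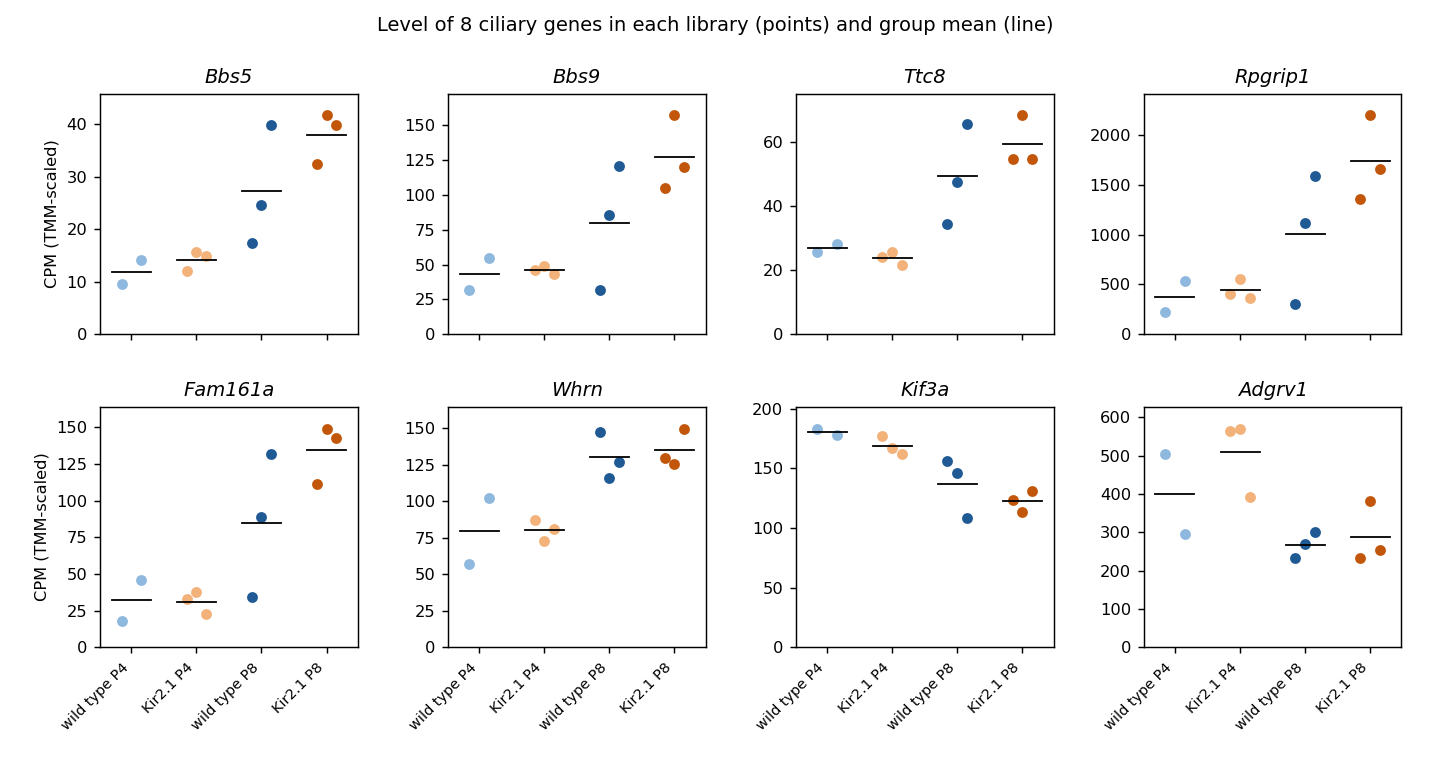
CPM of 8 genes in every library (points) with the group mean (line), for wild type and Kir2.1 at P4 and P8, on linear axes that start at 0. Bbs5, Ttc8 and Whrn separate the ages completely, Rpgrip1 and Fam161a separate them except for wild-type P8 replicate 1 (303 and 34.1 CPM), and Kif3a and Adgrv1 are lower at P8.

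Among the 3 genes that assemble or recruit the BBSome, 2 rose. Arl6 (chr16:59612949-59639391, minus strand), the small GTPase that brings the BBSome to membranes, had 23.3 to 44.8 CPM at P4, 29.7 in wild-type P8 replicate 1 and 59.5 to 89.9 in the other P8 libraries. Its log2 fold change was 1.14 ± 0.25 SE (edgeR adjusted p = 0.00638). The 2 chaperonin-like genes were expressed at lower levels. Bbs12 had 4.37 to 8.98 CPM at P4 and 5.86 to 14.8 at P8, a log2 fold change of 0.83 ± 0.25 SE (edgeR adjusted p = 0.0319) that lost the call under 7 of 18 alternative settings. Bbs10 (chr10:111298679-111301727, plus strand) measured 5.56 and 4.57 CPM in wild-type P4, 3.53, 5.14 and 4.90 in Kir2.1 P4, 7.88, 7.66 and 6.02 in wild-type P8, and 5.63, 4.70 and 5.71 in Kir2.1 P8. Its 2 ages overlapped in the Kir2.1 libraries, and its log2 fold change of 0.37 ± 0.19 SE did not pass (edgeR adjusted p = 0.198).

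The 8 IFT-B genes, which carry cargo towards the ciliary tip, had a median log2 fold change of 0.09 and a range of -0.29 to 0.32. Only Ift20 and Ift81 passed. Ift20 (chr11:78536361-78541737, plus strand), the IFT-B protein that also sits at the Golgi and helps send membrane proteins to the cilium, had 36.9 and 40.9 CPM in wild-type P4, 36.5, 28.0 and 33.3 in Kir2.1 P4, 47.6, 40.1 and 42.1 in wild-type P8, and 49.9, 41.5 and 45.3 in Kir2.1 P8. The difference was small (log2 0.32 ± 0.10 SE, edgeR adjusted p = 0.0437) and its call was lost under 12 of 18 alternative settings. Ift81, which binds tubulin for transport, differed by 0.30 ± 0.09 SE (edgeR adjusted p = 0.0322), with all 6 P8 libraries (65.9 to 88.4 CPM) above all 5 P4 libraries (54.7 to 65.2), and lost its call under 9 of 18.

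Ift57 (chr16:49699233-49765126, plus strand), the other end of the range, had 23.3 to 29.1 CPM at P4 and 14.3 to 26.2 at P8. Its value of 14.3 CPM came from wild-type P8 replicate 1, and the log2 fold change of -0.29 ± 0.14 SE did not pass (edgeR adjusted p = 0.161). The X-boxes of Ift57 are printed above. Ift88, whose partial loss causes photoreceptor degeneration in mice, had a log2 fold change of 0.27 ± 0.12 SE, and Ift172, a peripheral IFT-B subunit, one of 0.05 ± 0.09 SE, and neither passed. Ift140 (chr17:25016085-25099495, plus strand), the one IFT-A gene, stood at 54.2 to 72.7 CPM at P4 and 64.6 to 74.3 at P8, which overlap (log2 0.17 ± 0.10 SE, edgeR adjusted p = 0.239).

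Kif3a (chr11:53567379-53601967, plus strand), a motor subunit of heterotrimeric kinesin-2, was lower at P8. It measured 183 and 178 CPM in wild-type P4, 177, 167 and 162 in Kir2.1 P4, 156, 146 and 109 in wild-type P8, and 124, 114 and 131 in Kir2.1 P8. All P8 libraries lay below all P4 libraries, a pattern shown by 7.1% of all genes, and the log2 fold change was -0.43 ± 0.10 SE (edgeR adjusted p = 0.00789). Kif17, the homodimeric kinesin-2, had 1.15 to 4.45 CPM at P4 and 1.70 to 4.51 at P8, too few counts to place it (log2 -0.10 ± 0.30 SE, edgeR adjusted p = 0.851).

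Of 11 transition zone and connecting cilium genes 5 rose, none fell, and 6 did not pass, with a median log2 fold change of 0.49. Rpgrip1 (chr14:52110704-52163546, plus strand), which anchors RPGR at the connecting cilium, had 221 and 536 CPM in wild-type P4, 402, 552 and 369 in Kir2.1 P4, 303, 1115 and 1589 in wild-type P8, and 1359, 2194 and 1658 in Kir2.1 P8. Apart from wild-type P8 replicate 1 the P8 libraries were all above 1100 CPM. The difference was 3.23-fold (log2 1.69 ± 0.37 SE, edgeR adjusted p = 0.00611).

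Fam161a (chr11:23007531-23030788, plus strand), a microtubule-binding protein of the connecting cilium's inner scaffold, rose most of the 37. It had 18.1 and 46.3 CPM in wild-type P4, 33.2, 37.7 and 22.8 in Kir2.1 P4, 34.1, 89.1 and 132 in wild-type P8, and 111, 149 and 143 in Kir2.1 P8, which is 3.37-fold (log2 1.75 ± 0.33 SE, edgeR adjusted p = 0.00252). Again wild-type P8 replicate 1 alone fell within the P4 range. Cep290 (chr10:100487558-100574840, plus strand), which tethers the axoneme to the membrane in the transition zone, had 118 to 191 CPM at P4, 148 in wild-type P8 replicate 1 and 300 to 547 in the other P8 libraries (log2 1.15 ± 0.24 SE, edgeR adjusted p = 0.00521). Nphp4 and Cc2d2a, structural proteins of the transition zone, rose by 0.71 ± 0.20 and 0.55 ± 0.17 SE, and lost the call under 7 and 6 of 18 alternative settings.

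The remaining 6 genes of the zone had log2 fold changes of 0.06 to 0.49. Rpgr, the X-linked retinitis pigmentosa gene whose protein Rpgrip1 anchors, had 73.4 to 131 CPM at P4 and 95.9 to 207 at P8 (log2 0.49 ± 0.20 SE, edgeR adjusted p = 0.0972). Rp2 (chrX:20364481-20405653, plus strand), the GTPase-activating protein of Arl3, was at 13.7 to 20.1 CPM at P4 and 15.4 to 18.6 at P8, the smallest difference of the class at 0.06 ± 0.13 SE. Lca5, Spata7, Tmem67 and Ahi1 had 0.18, 0.25, 0.17 and 0.19, none of which passed. Exons of Rpgrip1, Cep290, Rpgr and Tmem67, and likewise of Bbs12, Ift57, Ift88 and Kif17, overlap those of other genes, so a part of their counts may be of those neighbours.

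Of the 5 Usher genes 2 rose, 1 fell and 2 did not pass. Whrn (chr4:63414910-63495991, minus strand), the scaffold whirlin, had 56.9 and 102 CPM in wild-type P4, 87.4, 73.1 and 81.2 in Kir2.1 P4, 148, 116 and 127 in wild-type P8, and 129, 126 and 150 in Kir2.1 P8. It rose without overlap (log2 0.73 ± 0.14 SE, edgeR adjusted p = 0.0029), and in contrast to most genes that rose its value in wild-type P8 replicate 1 was among the highest. Adgrv1 (chr13:81095068-81633154, minus strand), the very large adhesion receptor that binds whirlin, fell: it had 505 and 296 CPM in wild-type P4, 564, 571 and 393 in Kir2.1 P4, 232, 269 and 300 in wild-type P8, and 233, 380 and 253 in Kir2.1 P8. Wild-type P4 replicate 2 lay within the P8 range, and the log2 fold change was -0.70 ± 0.17 SE (edgeR adjusted p = 0.0114).

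Myo7a, a motor expressed in photoreceptors and in pigment epithelium, rose by 0.44 ± 0.14 SE (edgeR adjusted p = 0.0363) and lost its call under 9 of 18 alternative settings. The 10 pigment epithelium markers summed to 27.9 CPM in Kir2.1 P8 replicate 2 and to 4.46 to 7.87 in the other 10 libraries, and their part in the result was not tested. Pcdh15 had 176 to 497 CPM at P4 and 229 to 755 at P8, with a log2 fold change of 0.67 ± 0.23 SE that did not pass (edgeR adjusted p = 0.0567). Cdh23 (chr10:60302748-60696490, minus strand), which forms adhesion links with Pcdh15, had 3.76 and 6.85 CPM in wild-type P4, 0.837, 3.76 and 1.84 in Kir2.1 P4, 6.51, 4.68 and 7.73 in wild-type P8, and 6.21, 8.45 and 4.20 in Kir2.1 P8. Its log2 fold change of 0.89 ± 0.36 SE did not pass (edgeR adjusted p = 0.0953).

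Levels between genes are compared per kilobase of exon. Over the 11 libraries Rpgrip1 had the highest level at 77.0 CPM per kb, followed by Kif3a at 41.8 and Ahi1 at 34.6. At P4 Rpgrip1 was not above Kif3a. The 2 genes stood at 31.1 ± 18.3 SD and 50.4 ± 1.02 SD in wild type (n = 2). In Kir2.1 (n = 3) they stood at 36.3 ± 8.04 SD and 47.0 ± 2.16 SD. At P8 Rpgrip1 had 82.5 ± 53.5 SD against 38.2 ± 7.05 SD for Kif3a in wild type (n = 3). In Kir2.1 (n = 3) it had 143 ± 34.8 SD against 34.3 ± 2.42 SD. The wide spread in wild-type P8 held replicate 1, with 303 CPM of Rpgrip1 against 1115 and 1589 in replicates 2 and 3. The lowest levels were those of Bbs10 (1.83 CPM per kb), Kif17 (0.564) and Cdh23 (0.294).

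Libraries differed in how far they lay from P4. Across all 37 genes, 5 had all P8 libraries above all P4 libraries (Bbs2, Bbs5, Ttc8, Ift81 and Whrn), against 4.55% of all genes. Leaving wild-type P8 replicate 1 aside, 17 of the 37 genes separated in that direction, against 8.95% of all genes. That library was the lowest P8 library for 26 of the 37 genes, so leaving it aside favours separation of these genes. Wild-type P8 replicate 1 was the lowest P8 library for 15 of the 18 genes that rose, and at or under the highest P4 library for 12 of them. Counts of this kind were not made over all genes tested. Kir2.1 P8 replicate 2 was the highest P8 library for 15 of the 18 genes that rose and for 24 of the 37. In that library 69.4% of uniquely mapped records fell in no feature, against 57.0 to 62.4% in the other 10 libraries, and the part of this in the result was not tested.

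Summed levels of BBSome subunits, transition zone, IFT-B and Usher genes had the order of the rod markers across the wild-type P8 libraries. Across the Kir2.1 P8 libraries they did not. In wild-type P8 replicates 1, 2 and 3 the rod markers summed to 1485, 3842 and 7792 CPM, the 7 BBSome subunits to 233, 391 and 486, and the 11 transition zone genes to 1027, 2199 and 2969. Rpgrip1 alone gave 303, 1115 and 1589 CPM of the transition zone sums, and Rp2 and Spata7 had their lowest P8 value in replicate 3. Amacrine cell markers had the opposite order, at 3023, 2074 and 1070 CPM, as did Kif3a, at 156, 146 and 109. Kif17, at 2.38, 4.51 and 2.36 CPM, did not have that order. In Kir2.1 P8 replicate 2 the rod sum was the lowest of the 3 (7116 CPM, against 7667 and 7758), while the BBSome sum was the highest (551, against 434 and 475), as was the transition zone sum (3730, against 2520 and 3020). Bipolar cell markers, all 9 of which were higher at P8 by the same test, had sums of 734, 1256 and 2132 CPM in those wild-type libraries, the order of the rod markers. In Kir2.1 P8 they summed to 1607, 1786 and 1414 CPM, highest in replicate 2 as the BBSome and transition zone sums were. Dividing cell markers summed to 87.0 to 102 CPM in the wild-type P8 libraries and to 108 to 146 in the Kir2.1 P8 libraries. The IFT-B sum was 319 to 379 CPM in wild-type P8, 372 to 410 in Kir2.1 P8 and 327 to 361 over the 5 P4 libraries. All 13 rod markers were higher at P8 by the same test, and all 11 ganglion cell markers and all 10 dividing cell markers were lower. The part of these shifts in cell markers in the ciliary differences was not tested.

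**Figure D3:**
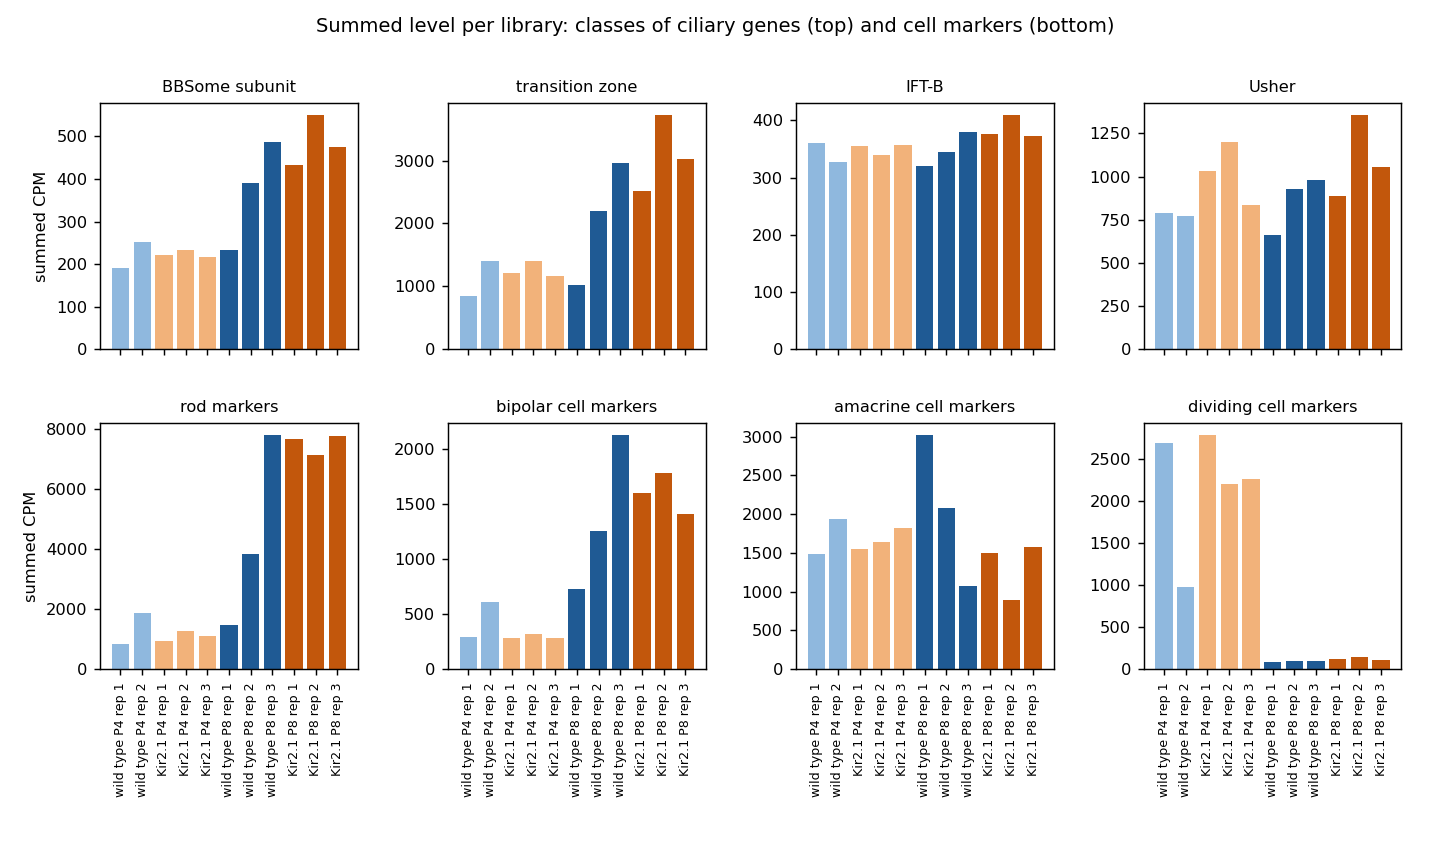
Bars give summed CPM per library for 4 classes of ciliary genes (top) and 4 marker lists (bottom), with axes from 0 and a colour for each group. BBSome and transition zone sums are low in wild-type P8 replicate 1 (233 and 1027 CPM), where rod markers are also low (1485 CPM) and amacrine markers high (3023 CPM), and the IFT-B sum lies between 319 and 410 CPM in all libraries.

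Within Kir2.1 retinas alone (3 libraries at each age), 18 of the 37 genes were higher at P8 and 2 were lower, against 7.93% and 8.73% of all genes tested. All 7 BBSome subunits were among them, with a median log2 fold change of 1.32. Fam161a rose by 2.103 ± 0.43 SE (edgeR adjusted p = 0.00633) and Rpgrip1 by 1.98 ± 0.48 SE (edgeR adjusted p = 0.0156). Cdh23, not called in the average of both genotypes, rose by 1.53 ± 0.48 SE (edgeR adjusted p = 0.0495), a call that was lost under 8 of 18 alternative settings. The Kir2.1 libraries of the 2 ages did not overlap for 22 genes that were higher at P8, against 19.4% of all genes, and for 3 that were lower (Ift57, Kif3a and Adgrv1), against 18.7%. The count of 20 called genes moved with each Kir2.1 library left out: it fell to 7, 11 and 6 when P4 replicate 1, 2 or 3 was dropped, and to 12, 8 and 10 for P8 replicate 1, 2 or 3. Over all genes tested the share called fell likewise, from 16.7% to between 9.68% and 11.9%.

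Within wild type (2 libraries against 3), none of the 37 genes passed by edgeR, against 0.803% of all genes called higher and 3.58% called lower. At an unadjusted p under 0.05 there were 12, of which 10 were higher at P8, against 19.6% of all genes. DESeq2 called 4, all higher (Bbs5, Bbs7, Ttc8 and Whrn), and limma voom called 1 (Ttc8). In either direction these tests called 9.21% and 5.3% of all genes. The lowest edgeR adjusted p was 0.0517, for Bbs5 (log2 1.21 ± 0.31 SE). The wild-type libraries did not overlap for 7 genes that were higher at P8, against 14.2% of all genes, and for 1 that was lower (Kif3a), against 16.9%.

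Wild-type P8 replicate 1 was the lowest P8 library for 15 of the 18 genes that rose, and wild-type P4 replicate 2 the highest P4 library for 10. Leaving out either thus favours calls of genes as higher at P8, so the counts below are no separate support. Without wild-type P8 replicate 2 or 3 the wild-type comparison called none, against 2.95% and 4.47% of all genes called in either direction. Without wild-type P8 replicate 1 it called 12 genes, all higher, against 3.19% of all genes called higher. These were Bbs1, Bbs4, Bbs5, Bbs7, Bbs9, Ttc8, Arl6, Rpgrip1, Cep290, Nphp4, Cc2d2a and Fam161a. Without wild-type P4 replicate 2 it called 3 (Bbs5, Fam161a and Whrn), against 7.46% of all genes called in either direction. With both left out it called 14, against 4.76% of all genes called higher, where the lone wild-type P4 library is assumed to vary like the other groups. The 2 genotypes had the same sign of change for 36 of the 37 genes (97.3%), against 74.8% of all genes, and Kif17 was the exception.

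**Figure D4:**
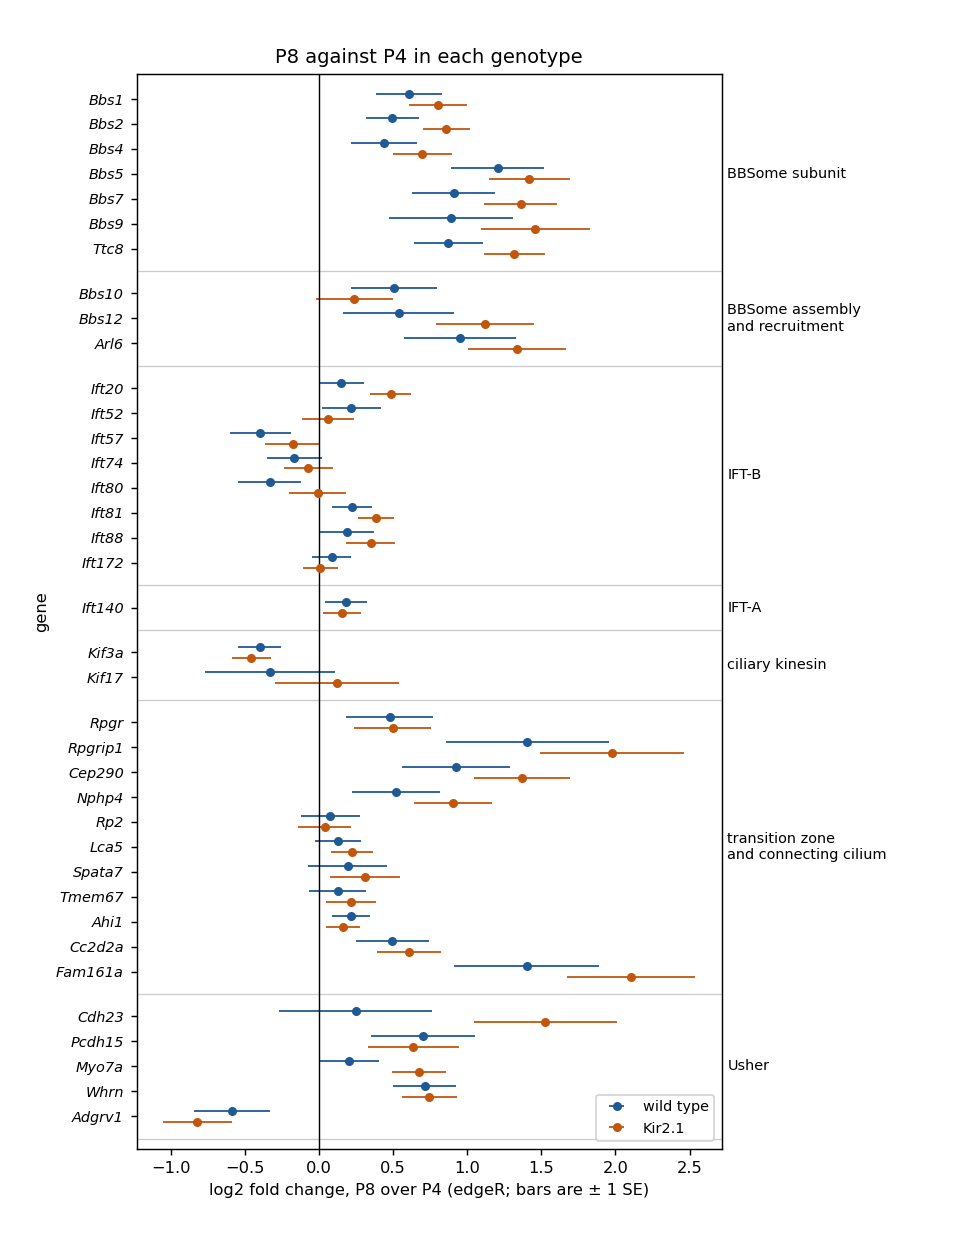
Log2 fold change of P8 over P4 in wild type (blue) and in Kir2.1 (orange) for each of the 37 genes by class, with bars of 1 SE from edgeR. Points of both genotypes lie on the same side of 0 for 36 genes, from Fam161a (1.40 in wild type, 2.103 in Kir2.1) down to Adgrv1 (-0.59 and -0.82).

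Kir2.1 and wild-type retinas were compared at each age to ask whether these genes differ when ganglion cells carry the channel. At P4 none of the 37 passed by edgeR (0% of all genes did), 2 had an unadjusted p under 0.05 (7.22% of all genes), and DESeq2 and limma voom called none. Without the filter on low counts edgeR called 1 (Pcdh15), against 0.928% of all genes. With the filter, the lowest edgeR adjusted p was 0.677. The median log2 difference was 0.03, against 0.01 over all genes tested. That median took the other sign, -0.08, when replicate 1 of the 2 wild-type libraries was left out, and was 0.15 when replicate 2 was left out. The 2 lowest values were those of Cdh23 (-1.29 ± 0.53 SE) and Kif17 (-1.09 ± 0.44 SE), whose counts are the lowest of the 37. Kif17 had 4.45 and 3.30 CPM in wild type and 2.14, 1.15 and 2.19 in Kir2.1, without overlap.

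The 2 highest values at P4 were those of Pcdh15 (0.65 ± 0.35 SE) and Ift52 (0.38 ± 0.20 SE). Pcdh15 had 176 and 302 CPM in wild type and 325, 497 and 306 in Kir2.1. Ift52, a core subunit of IFT-B, had 16.0 and 16.7 CPM in wild type and 17.0, 24.5 and 22.1 in Kir2.1. Neither gene overlapped between genotypes, and the margins were narrow. In all, 4 genes had every Kir2.1 P4 library above both wild-type P4 libraries (12.4% of all genes did) and 5 had every one below (14.4%).

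At P8 none of the 37 passed by edgeR either (0% of all genes), 2 had an unadjusted p under 0.05 (6.82% of all genes), and DESeq2 and limma voom called none. Without the filter on low counts edgeR called 5 (Bbs9, Rpgrip1, Cep290, Fam161a and Pcdh15), against 1.22% of all genes. With the filter, the lowest edgeR adjusted p was 0.699. The 37 genes lay to one side: 30 had a higher mean in Kir2.1 and 7 a lower one, where 9194 of all 18188 genes tested were higher. They were measured in the same libraries, so their signs are not separate observations. Their median log2 difference was 0.27, against 0.00 over all genes tested. The 13 rod markers had a median log2 difference of 0.87 in the same comparison, with none called, and their part in the result was not tested. When 1 P8 library was left out, the median of the 37 genes was 0.15 (wild-type replicate 1), 0.17 (Kir2.1 replicate 2) or 0.36 (wild-type replicate 3), and 0.26 to 0.33 for each of the other 3. The 2 highest values were those of Rpgrip1 (0.79 ± 0.47 SE) and Bbs9 (0.67 ± 0.36 SE), whose libraries are given above. For both, wild-type P8 replicate 3 lay among the Kir2.1 libraries and replicates 1 and 2 below them.

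The 2 lowest values at P8 were those of Kif17 (-0.64 ± 0.41 SE) and Bbs10 (-0.42 ± 0.26 SE). Kif17 had 2.38, 4.51 and 2.36 CPM in wild type and 2.15, 2.09 and 1.70 in Kir2.1. These 2 genes had every Kir2.1 P8 library below every wild-type P8 library (5.11% of all genes did), and Bbs12 and Spata7 had every one above (5.5%). With 3 libraries against 3, an exact permutation test of 1 gene cannot give a p below 0.1.

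**Figure D5:**
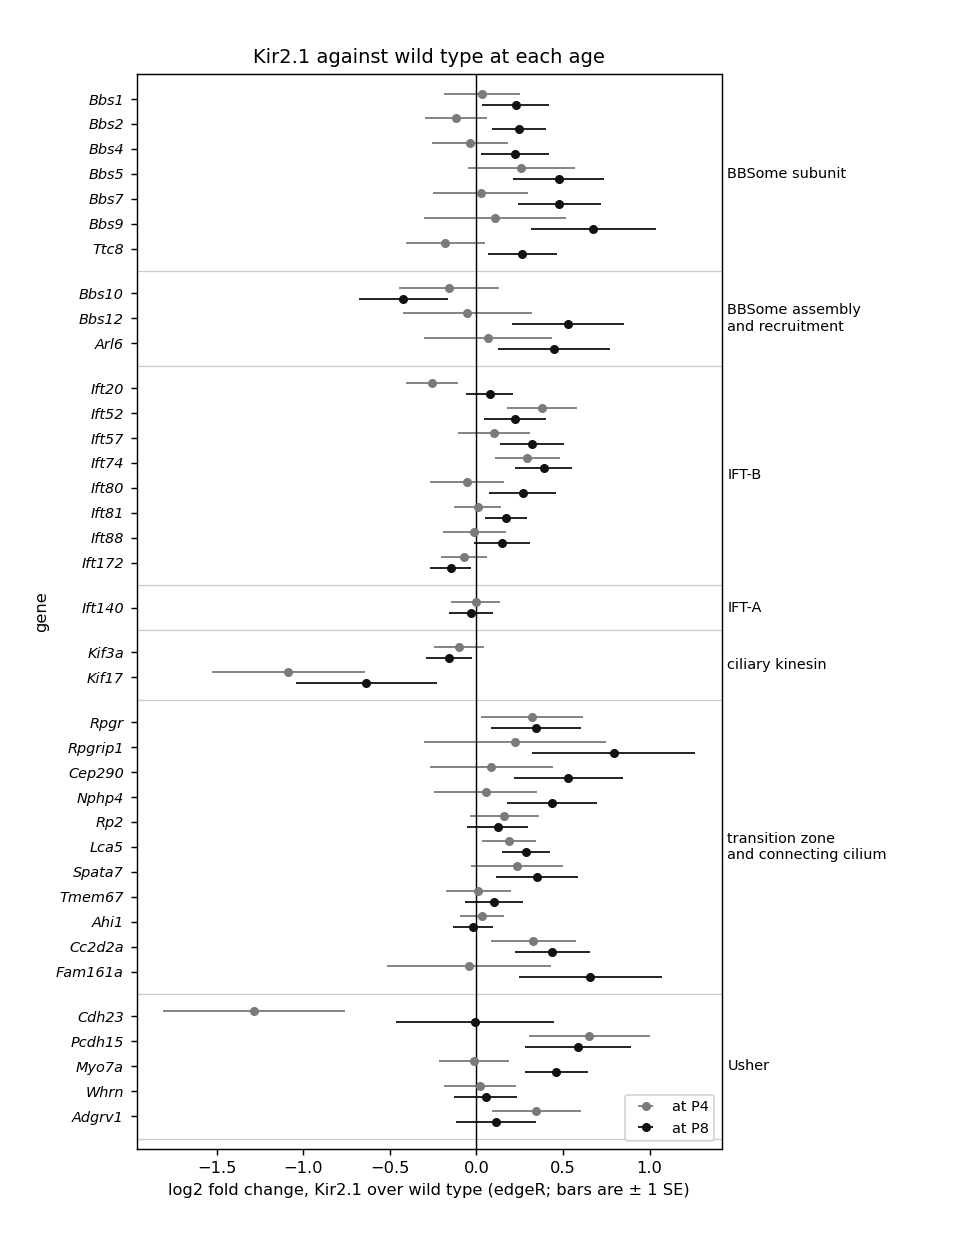
Kir2.1 over wild type as a log2 fold change, at P4 (grey) and at P8 (black) for each gene by class, with bars of 1 SE from edgeR. At P8 30 of 37 points lie to the right of 0, with bars of 1 SE that often stop short of 0 although no adjusted p passed, and at P4 Cdh23 (-1.29) and Kif17 (-1.09) lie farthest to the left.

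The test of whether the Kir2.1 difference changed between P4 and P8 called none of the 37 by edgeR, DESeq2 or limma voom. None of all genes passed by edgeR (0%), and none of the 37 had an unadjusted p under 0.05, against 3.09% of all genes. The difference was 1.28 ± 0.70 SE for Cdh23, the largest of the 37, and 0.57 ± 0.70 SE for Rpgrip1.

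The authors' deposited table for P8 called 7 of the 36 genes that had an adjusted p in it, all higher in Kir2.1, against 3.25% of all genes in that table called higher (7.27% in either direction). These were Bbs5, Bbs7, Arl6, Ift74, Rpgr, Cc2d2a and Myo7a. The authors' deposited table gives Cc2d2a at 0.74 on the log2 scale (their adjusted p = 0.00469) and Myo7a at 0.70 (0.0104). The edgeR values over all 6 libraries were 0.44 ± 0.22 SE and 0.46 ± 0.18 SE. Without wild-type P8 replicate 3 edgeR called 2 of the 37 higher in Kir2.1 (Ift74 and Myo7a), against 0.709% of all genes. The median absolute difference between the authors' log2 fold changes and those of edgeR over the 37 genes was 0.141 with all libraries and 0.0205 without wild-type P8 replicate 3. The authors' deposited table for P4 called none of the 37, against 2.27% of all genes in it. Its log2 fold changes were above 0 for 11 of the 37 genes, against 22 by edgeR. Their median absolute difference from the edgeR values at P4 was 0.177 with all libraries.

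Of 73 other ciliary genes tested for P8 against P4 averaged over genotypes, 19 were higher and 1 was lower, with a median log2 fold change of 0.23. Over all genes tested 10.7% were higher and 12.1% lower, and the counts of small lists are to be read against these shares. Of 7 genes linked to the photoreceptor axoneme 4 rose, led by Rp1 (2.76 ± 0.50 SE, edgeR adjusted p = 0.00205), a doublecortin protein that stabilises the outer segment axoneme, and its relative Rp1l1 (1.897 ± 0.34 SE, edgeR adjusted p = 0.00182). Of 4 carriers of lipidated cargo 3 rose, with Unc119, a carrier of transducin, at 1.67 ± 0.30 SE (edgeR adjusted p = 0.00176).

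Of 14 other IFT genes 4 rose and none fell, and of 8 motor genes 2 rose and Kif3c, a kinesin-2 subunit like Kif3a, fell by 0.31 (edgeR adjusted p = 0.0485). Of 23 other transition zone genes 4 rose, a count near the share of all genes. Rpgrip1l, the relative of Rpgrip1 found at transition zones in many tissues, had a log2 fold change of 0.01 ± 0.14 SE (edgeR adjusted p = 0.968), with 30.9 to 48.0 CPM at P4 and 34.1 to 48.4 at P8. Lztfl1, a regulator of BBSome entry into cilia, rose by 0.68 ± 0.11 SE (edgeR adjusted p = 0.001) and was the only gene of these lists called in wild type alone (edgeR adjusted p = 0.037). None of the 6 RFX and FOXJ1 regulators tested was called. Markers of motile cilia, which retina lacks, summed to 78.1 to 127 CPM in all libraries.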

How the data were processed

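The authors deposited whole-number counts per Ensembl gene, 1 table per library; per the submitters' processing notes, cutadapt 1.18, STAR 2.5.0c, SAMtools 1.9, bedtools 2.26.0, HTSeq 0.6.1, DESeq2 and mm10 were used. The annotation and the strand setting are not given in the sources used here. Rows that name no gene held 74.6 to 79.8% of the records in the deposited count tables and were left out. Per the file headers, the authors' comparison tables give log2 fold changes, standard errors and adjusted p-values, quoted only as theirs.

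Counts of 11 libraries were fitted in edgeR 4.0.16 (R 4.3.3) with 4 group means after filterByExpr and TMM scaling (factors 0.964 to 1.05), with Benjamini-Hochberg adjustment over 18188 genes and a threshold of 0.05. An SE is the log2 fold change over the square root of the F statistic. Alternatives used DESeq2 1.42.0, limma 3.58.1, other filters, a replicate block and left-out libraries. The fit was tested on simulated data. Exon lengths and gene positions are of GENCODE M21, and promoters of RefSeq. Full values are given for the members called with the largest changes, the extremes of each class and comparison, and the highest and lowest levels. The members, lists and alternatives were chosen with earlier results of these data known. The values of 1 other ciliary gene are not reported here.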

Additional observations from a re-analysis of the deposited data

How the results depend on the processing

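Under the alternatives run, DESeq2 size factors included, no called gene reversed for P8 against P4 averaged over genotypes or in Kir2.1; other named genes were not followed there, except the 4 extremes of each Kir2.1 comparison. Averaged over genotypes, the count of 20 called genes ranged from 11 (without wild-type P4 replicate 1, 12% of all genes) to 22 (without wild-type P8 replicate 1, 24.3%) when 1 library was left out, against 22.8% of all genes with all libraries. Of single calls in that comparison, 134 of 140 held under the other 7 settings and 173 of 220 when 1 library was left out. Within Kir2.1 the count of 20 ranged from 6 to 21 without 1 library. Within wild type the count of 0 became 1 with DESeq2 size factors, 1 with limma voom, 4 with the DESeq2 test, 12 with no filter on low counts (5.63% of all genes), 14 without wild-type P4 replicate 2 and P8 replicate 1 together, and 0 to 12 without 1 library. For Kir2.1 against wild type, no filter on low counts gave 1 gene at P4 (Pcdh15; 0.928% of all genes) and 5 at P8 (Bbs9, Rpgrip1, Cep290, Fam161a and Pcdh15; 1.22%), and leaving out 1 library gave 0 to 2 at P8. The cause of these shifts was not tested. The X-box share was 14.3% with a fixed spacing of 2 bases, in place of 26.2%.

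Replicate numbers are shared between groups. Deviations of same-numbered libraries correlated at -0.0757 to 0.139, and those of differently numbered libraries at -0.147 to 0.143. With 2 to 3 libraries a group, these values cannot settle whether the numbers pair samples. With the replicate number as a block, 18 genes were called averaged over genotypes, 20 in Kir2.1 and 1 in wild type, against 20.5%, 16.1% and 3.07% of all genes. Counts of 9 to 47 in the least expressed members, and 2 to 3 libraries a group, limit what could be detected for them.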
